A study of Oryctolagus cuniculus with 134 samples.

Results

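Dietary cholesterol was followed here through 5 genes of the cell's own cholesterol production, in the proximal aorta and the 4 heart valves of rabbits. The members are FDFT1 (ENSOCUG00000005160), SQLE (ENSOCUG00000015771), CYP51A1 (ENSOCUG00000004549), MSMO1 (ENSOCUG00000003769) and INSIG1 (ENSOCUG00000013795), taken by gene name from a fixed list and found as 5 of the 29587 genes in the count tables. Each name matched 1 row, so no gene of the list was lost. The list was drawn up with the responses of these genes to the cholesterol diet already known, so their differences between the cholesterol groups and the other groups are given below as a description. Calls of the fit over all genes are counted for them beside the share of all genes called, no p-value is given, and nothing is read from those counts. Although the group was labelled as sterol synthesis and uptake genes, none of the 5 takes cholesterol into the cell. FDFT1, SQLE, CYP51A1 and MSMO1 are enzymes of synthesis and INSIG1 is a regulator.

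The libraries came from 27 male New Zealand White rabbits in 4 treatment groups. Protocols began at 12 weeks of age and lasted 16 weeks. The Ctrl rabbits (n = 7) received standard chow. The CHT rabbits (n = 6) received chow enriched with 0.3% cholesterol, and the Lard rabbits (n = 7) received chow enriched with 5% lard. The IR/CHT rabbits (n = 7) received the cholesterol diet and, after week 8, X-ray irradiation of the heart, 24 Gy in 3 fractions of 8 Gy. The study names both the aortic valve and the thoracic aorta as the target of the beam. The CHT, Lard and IR/CHT rabbits also received vitamin D2, 25000 U per day for each 2.5 kg of body weight, for 15 days at the start, and the Ctrl rabbits did not. A difference from Ctrl therefore holds diet and supplement together, whereas CHT against Lard compares diets with the supplement in both. Each library was 1 tissue of 1 rabbit, and every rabbit gave all 5 tissues except 1 Ctrl rabbit without a mitral valve library.

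Cholesterol is built from acetyl units through the mevalonate pathway. FDFT1, squalene synthase, makes the first compound committed to sterols. SQLE, squalene epoxidase, adds oxygen to squalene before the molecule is folded into lanosterol, and its reaction is a control point of the pathway. CYP51A1 removes a methyl group from lanosterol and MSMO1 oxidises further methyl groups on the way to cholesterol. INSIG1 sits in the endoplasmic reticulum membrane and, when sterols are plentiful, holds back SCAP with the transcription factor SREBP2. SREBP2 would otherwise travel to the Golgi, be cleaved and switch on the genes of sterol synthesis and INSIG1 itself. The arterial wall and the valve leaflets both carry the pathway, and macrophages that fill with cholesterol are a hallmark of the arterial lesion.

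Total counts ranged from 13564979 to 50577676 read pairs per library, with a median of 18235577. Levels are given as CPM, the read pairs of a gene scaled to a common library size within each tissue, and 1 CPM was worth 13.6 read pairs in the shallowest library and 18.2 in the median library. The lowest count of a member in any library was 39 read pairs (MSMO1). All 5 passed the filter on low counts in every tissue. Gene lengths were not used, so levels are compared between groups of 1 gene and never between genes. The proximal aorta carried smooth muscle markers at a summed 72651 to 100761 CPM in Ctrl against 485 to 1348 CPM in the Ctrl aortic valves. Of the 7 IR/CHT pulmonary valves, 2 stood apart. One (L176) had a smooth muscle sum of 20597 CPM, against 2714 CPM in the next highest valve library of any tissue, and another (L275) had an endothelial sum of 95.3 CPM, against 1122 CPM in the next lowest pulmonary valve. Counts and pulmonary valve differences that rest on them are also given without each. The counts were labelled as 2 plates, and the aortic and mitral valves of the CHT group lay on plate 1 only.

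All 5 genes were lower on the cholesterol diet in all 5 tissues. With CHT set against Ctrl, the 25 log2 fold changes ran from -2.44 (SQLE, mitral valve) to -0.84 (FDFT1, tricuspid valve) with a median of -1.62, so that levels stood at 18.5% to 55.8% of Ctrl. By edgeR with an adjusted p under 0.05 and a fold change over 1.5, 24 of the 25 were called lower, all but FDFT1 in the tricuspid valve, which DESeq2 called. The share of all tested genes called lower was 5.18%, 3.48%, 0.64%, 0.111% and 0.0816%, taking the tissues in the order aorta, then aortic, mitral, pulmonary and tricuspid valve, the order of every list of 5 values that follows. In 18 of the 25 no CHT library reached the lowest Ctrl library, against 2.36%, 0.72%, 1.02%, 0.381% and 0.122% of all genes. These shares are printed for scale, because the genes were chosen on this comparison. In bulk tissue, fewer cells that make a transcript and less transcript per cell cannot be told apart. Counted by library, 30 of the 30 CHT values lay under the lowest Ctrl value of their gene in the aorta, and again 30 of 30 in the mitral valve. The pulmonary valve had 29 of 30, the tricuspid valve 23 of 30 and the aortic valve 22 of 30.

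**Figure D1:**
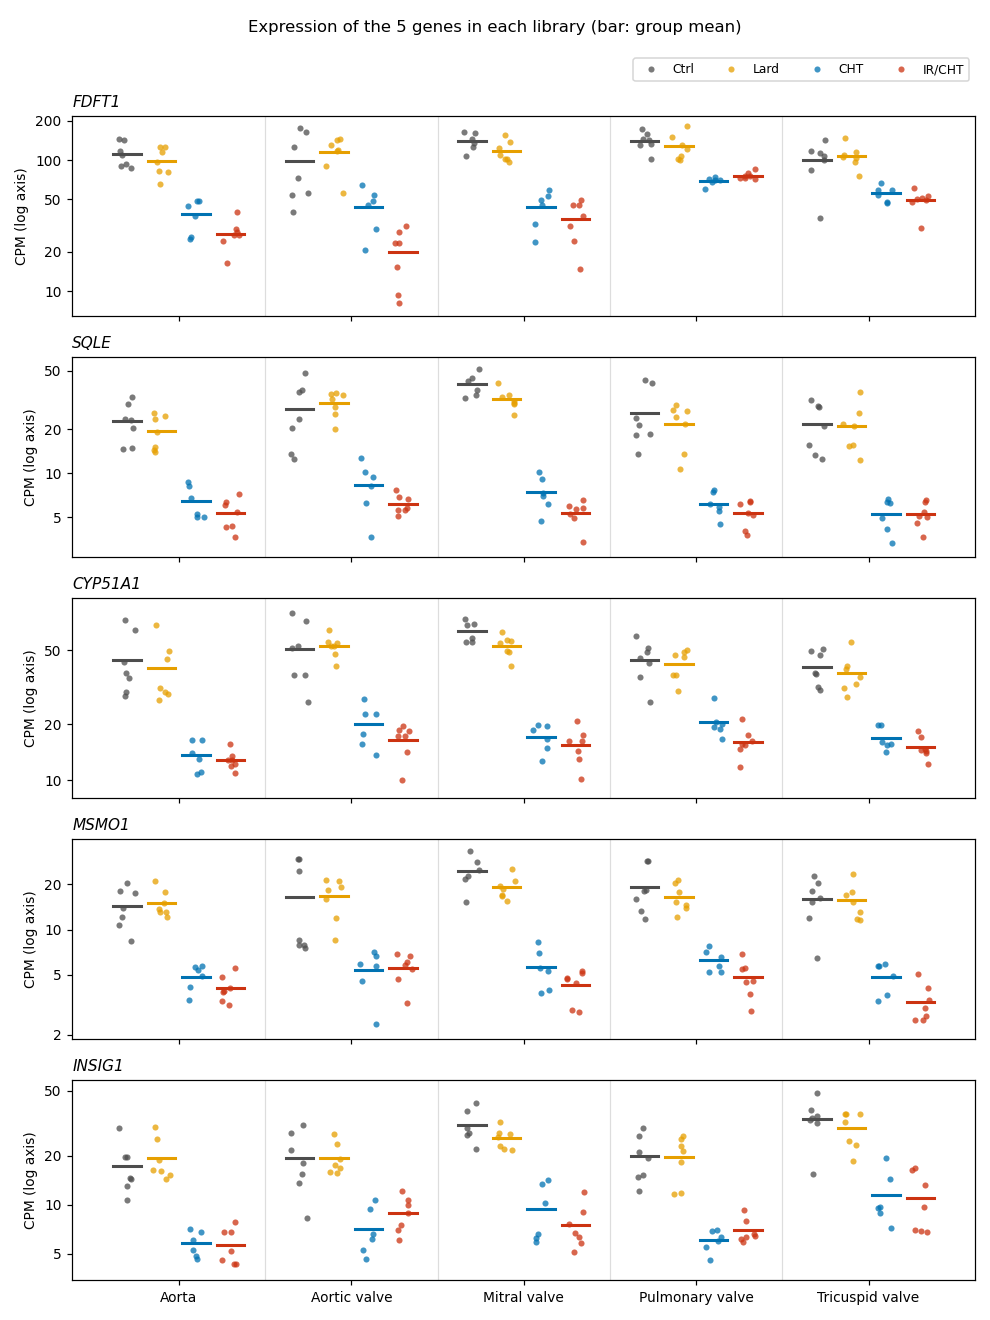
CPM (log axis) of the 5 genes in each library by tissue and treatment, with a bar at each group mean. The CHT and IR/CHT libraries mostly lie below the Ctrl and Lard libraries.

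SQLE had the lowest log2 fold change of the 5 in every tissue. In the mitral valve its lowest, median and highest levels were 32.5, 39.7 and 51.5 CPM in the 6 Ctrl libraries and 4.72, 7.21 and 10.1 CPM in the 6 CHT libraries. The mean went from 40.4 ± 7.10 to 7.44 ± 1.98 CPM (SD), a log2 difference of -2.44 (SE 0.18). Even the highest CHT mitral valve therefore held less than the lowest Ctrl one by a wide margin. In the aorta the same 3 levels were 14.7, 23.1 and 33.3 CPM in Ctrl and 5.02, 6.03 and 8.78 CPM in CHT, a difference of -1.81 (SE 0.22). In the pulmonary valve they were 13.4, 21.4 and 43.2 CPM and 4.50, 6.03 and 7.66 CPM, a difference of -2.05 (SE 0.26). In the tricuspid valve they were 12.4, 20.9 and 31.8 CPM and 3.38, 5.60 and 6.66 CPM, a difference of -2.02 (SE 0.26). Ctrl and CHT libraries did not overlap in any of these 4 tissues. The aortic valve was the exception, with 12.5, 23.3 and 48.3 CPM in Ctrl, 3.70, 8.80 and 12.6 CPM in CHT and a difference of -1.70 (SE 0.28), where the highest CHT library just passed the lowest Ctrl one. On the cholesterol diet SQLE had medians between 5.60 and 8.80 CPM over the 5 tissues, while its Ctrl medians ranged from 20.9 to 39.7 CPM.

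FDFT1, one step earlier in the pathway, had the smallest change of the 5 genes in every tissue. Its lowest, median and highest levels in the aorta were 86.6, 109.6 and 144 CPM in Ctrl and 25.1, 41.0 and 49.0 CPM in CHT, a log2 difference of -1.54 (SE 0.20). In the mitral valve they were 108, 139.6 and 163 CPM and 23.8, 47.7 and 58.6 CPM, a difference of -1.66 (SE 0.23). In both tissues the groups were fully apart. The pulmonary valve gave 102, 142 and 174.03 CPM in Ctrl and 59.9, 71.0 and 74.3 CPM in CHT, with means of 140.2 ± 22.8 and 69.2 ± 5.01 CPM and a difference of -1.02 (SE 0.12). The 6 CHT pulmonary valves spread less than any other CHT group of the 5 genes, with a coefficient of variation of 7.24%. In the aortic valve, levels of 40.0, 72.5 and 175.3 CPM in Ctrl overlapped 20.5, 47.2 and 64.6 CPM in CHT, a difference of -1.16 (SE 0.36). The call was lost when plate entered the fit (-1.23, SE 0.39), in a fit of the 2 groups alone (-1.18, SE 0.38), and without CHT library L169, L151 or L265 or Ctrl library L198 or L277 (-1.20 to -0.98). In the tricuspid valve 36.1, 107 and 141 CPM in Ctrl stood against 47.1, 56.6 and 66.9 CPM in CHT, a difference of -0.84 (SE 0.21) that did not pass the call. A single Ctrl library at 36.1 CPM lay below every CHT library there, and without it the difference was -0.98 (SE 0.15) and passed.

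CYP51A1, lanosterol demethylase, was lower in all tissues, most in the mitral valve. Lowest, median and highest levels there were 55.05, 63.1 and 73.2 CPM in Ctrl and 12.6, 17.6 and 19.8 CPM in CHT, a log2 difference of -1.89 (SE 0.15). The aorta had 28.2, 37.9 and 72.2 CPM in Ctrl and 10.8, 13.6 and 16.5 CPM in CHT, a difference of -1.70 (SE 0.23). Neither tissue had any overlap, and the Ctrl aortas were the more spread. The tricuspid valve, also without overlap, had 30.4, 37.6 and 50.8 CPM against 14.2, 15.8 and 19.8 CPM and a difference of -1.28 (SE 0.15). The aortic valve had 26.3, 51.5 and 79.3 CPM against 13.7, 20.1 and 27.5 CPM and a difference of -1.34 (SE 0.22). The pulmonary valve had 26.5, 45.3 and 59.5 CPM against 16.6, 19.6 and 27.5 CPM and a difference of -1.11 (SE 0.16). In both of these valves 1 CHT library, at 27.5 CPM, exceeded the lowest Ctrl library.

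MSMO1, the methylsterol oxidase, was the 1 gene of the 5 whose Ctrl and CHT libraries did not overlap in any tissue. In the mitral valve its lowest, median and highest levels were 15.4, 23.9 and 33.3 CPM in Ctrl and 3.77, 5.42 and 8.23 CPM in CHT, a log2 difference of -2.11 (SE 0.21). In the tricuspid valve they were 6.42, 16.2 and 22.9 CPM and 3.33, 5.30 and 5.92 CPM, a difference of -1.71 (SE 0.25). The lowest Ctrl tricuspid valve sat just above the highest CHT one. With the 2 groups alone in the fit the tricuspid difference was -1.71 (SE 0.27) and its call was lost. In the pulmonary valve they were 11.8, 18.1 and 28.7 CPM and 5.18, 6.15 and 7.81 CPM, a difference of -1.62 (SE 0.21), and in the aorta 8.41, 13.9 and 20.4 CPM and 3.38, 5.13 and 5.71 CPM, a difference of -1.58 (SE 0.20). In the aortic valve they were 7.58, 8.59 and 29.5 CPM and 2.33, 5.77 and 7.07 CPM, a difference of -1.62 (SE 0.35). The 7 Ctrl aortic valves were split for this gene, with 4 libraries between 7.58 and 8.59 CPM and 3 between 24.7 and 29.5 CPM, and both plates held libraries of each kind.

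INSIG1, the sterol-sensing brake on SREBP2, was lower alongside the enzymes. In the mitral valve its lowest, median and highest levels were 22.1, 28.6 and 41.9 CPM in Ctrl and 5.89, 8.45 and 14.3 CPM in CHT, a log2 difference of -1.71 (SE 0.23). In the pulmonary valve they were 12.1, 19.4 and 29.6 CPM and 4.55, 6.17 and 7.03 CPM, a difference of -1.71 (SE 0.22). In the aorta they were 10.7, 14.5 and 29.5 CPM and 4.61, 5.69 and 7.11 CPM, a difference of -1.58 (SE 0.22). These 3 tissues showed no overlap. In the tricuspid valve, where the Ctrl mean was the highest of the 5 tissues, the levels were 15.4, 34.1 and 48.2 CPM in Ctrl and 7.20, 9.62 and 19.2 CPM in CHT, a difference of -1.55 (SE 0.28). In the aortic valve they were 8.28, 17.9 and 30.8 CPM and 4.62, 6.36 and 10.6 CPM, a difference of -1.44 (SE 0.26). Both of these valves had 1 or more CHT libraries within the Ctrl range. The tricuspid valve call was lost with the 2 groups alone in the fit (-1.54, SE 0.27).

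The mitral valve had the lowest log2 fold change of the 5 tissues for each of the 5 genes, although for INSIG1 the pulmonary valve was equal to 2 decimals. The median over the 5 genes was -1.58, -1.44, -1.89, -1.62 and -1.55. Differences between tissues in the response were not tested. Against Lard, the comparison that holds vitamin D2 in both groups, CHT gave the same direction for all 25 values. The log2 fold changes were -1.58, -1.84, -2.10, -1.81 and -1.99 for SQLE. They were -1.37, -1.38, -1.43, -0.88 and -0.95 for FDFT1, again the smallest of the 5 genes in every tissue. They were -1.55, -1.40, -1.63, -1.05 and -1.16 for CYP51A1. MSMO1 gave -1.64, -1.64, -1.76, -1.40 and -1.69, and INSIG1 gave -1.75, -1.45, -1.44, -1.70 and -1.36. By edgeR 24 of 25 were called lower, beside 2.02%, 0.785%, 0.757%, 0.118% and 0.0612% of all genes, and FDFT1 in the tricuspid valve was again the exception, though it was called with plate as a covariate (-0.99), with the 2 groups alone (-0.94) and by DESeq2 (-0.94). INSIG1 in the tricuspid valve lost its call on leaving out any 1 of 11 libraries, with log2 fold changes of -1.44 to -1.26, and also with DESeq2 size factors (-1.35), with no filter on low counts (-1.36) and on plate 1 alone (-1.35). CHT and Lard libraries did not overlap in 23 of the 25, beside 0.771%, 0.519%, 0.738%, 0.277% and 0.129% of all genes lying wholly lower. Both this comparison and the next reuse the CHT or Ctrl libraries, so they are not independent of the first.

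Irradiated rabbits on the cholesterol diet also had the genes at levels below Ctrl. With IR/CHT set against Ctrl, all 25 were called lower in the fit of the 4 treatments, beside 12.2%, 21.7%, 6.65%, 0.125% and 0.122% of all genes, and 22 of the 25 had no overlap, beside 7.52%, 7.86%, 4.12%, 0.187% and 0.177% of all genes. FDFT1 in the tricuspid valve lost its call in the fit of the 2 groups alone (-1.02, SE 0.24). The log2 fold changes ranged from -2.90 to -0.88 with a median of -1.98. SQLE gave -2.09, -2.13, -2.90, -2.27 and -2.03 over the 5 tissues. FDFT1 gave -2.03, -2.31, -1.98, -0.88 and -1.02, its lowest value lying in the aortic valve. CYP51A1 gave -1.79, -1.62, -2.03, -1.46 and -1.44. The members furthest along the pathway and its regulator were also low, with -1.82, -1.58, -2.51, -2.0 and -2.26 for MSMO1 and -1.61, -1.11, -2.04, -1.51 and -1.62 for INSIG1. In the mitral valve, SQLE read 3.40, 5.68 and 6.57 CPM as the lowest, median and highest of 7 IR/CHT libraries. By library, 35 of 35 IR/CHT values lay under the lowest Ctrl value in the aorta, mitral valve and pulmonary valve each, 31 of 35 in the aortic valve and 27 of 35 in the tricuspid valve. Without L176 the count remained 25, and without L275 it also remained 25. The mean log2 difference of the 5 genes from the Ctrl mean was -1.504 in L176 and -1.90 in L275, the second being the lowest of the 7 IR/CHT pulmonary valves.

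**Figure D2:**
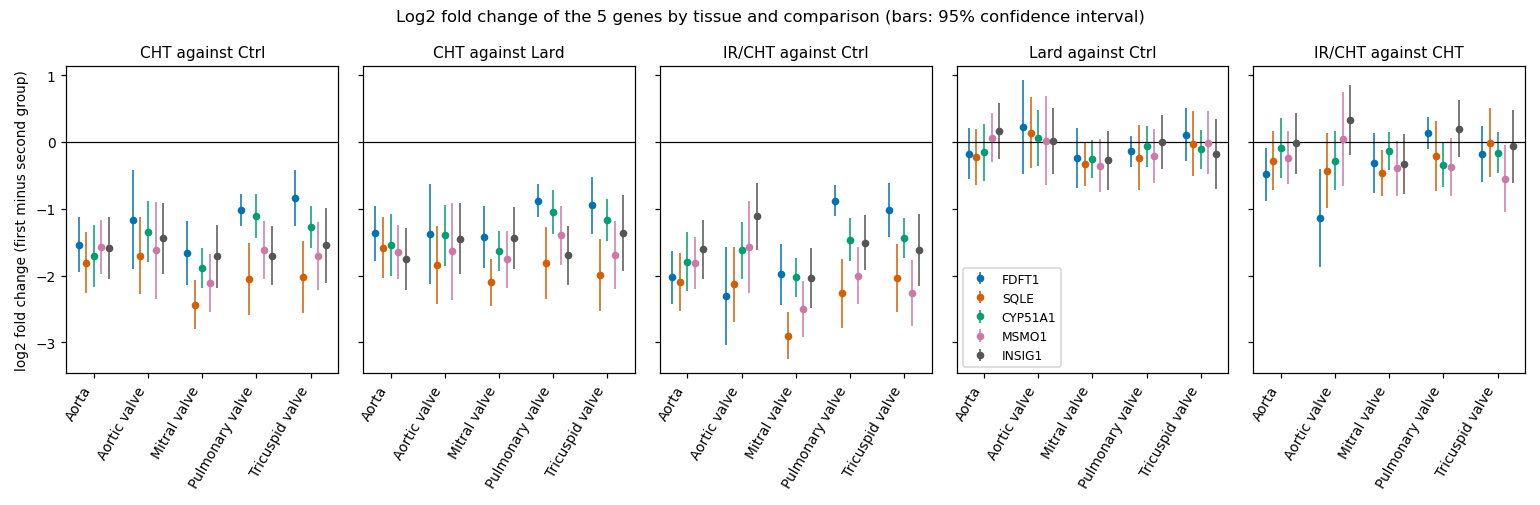
Log2 fold change (points) with 95% confidence interval (bars) of the 5 genes in each tissue, 1 panel per comparison, the first-named group minus the second. The 3 panels that set a cholesterol group against Ctrl or Lard lie below 0 throughout. Lard against Ctrl holds 17 negative and 8 positive values, and IR/CHT against CHT holds 21 negative and 4 positive, of which only FDFT1 in the aortic valve was called.

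The lard diet, given with vitamin D2, was tested against Ctrl. The genes were chosen for their responses to the cholesterol diet, and the Ctrl libraries of that comparison are used again here. By edgeR none of the 25 values was called, DESeq2 also called none, and 1 had an unadjusted p under 0.05. The share of all genes called was 2.61%, 0.234%, 0%, 0% and 0%. Log2 fold changes ran from -0.35 to 0.22, 17 of them negative and 8 positive. SQLE in the mitral valve, the value with the lowest unadjusted p, had 32.5, 39.7 and 51.5 CPM in Ctrl and 24.8, 31.1 and 41.3 CPM in Lard. Its log2 fold change was -0.33 (SE 0.16) with a 95% confidence interval whose upper bound lay just under 0, adjusted p = 1.0 by edgeR. All 5 genes were below Ctrl in the mitral valve, from -0.35 (MSMO1) to -0.24 (FDFT1), and above it in the aortic valve, from 0.01 (INSIG1) to 0.22 (FDFT1). None of these passed. The 95% intervals of 13 of the 25 lay wholly within a fold change of 1.5 in either direction, and the widest reached from -0.48 to 0.92 (FDFT1, aortic valve) and so did not exclude a change of that size. In the aorta, where Lard and Ctrl libraries overlapped for every member, lowest, median and highest levels were 14.03, 19.1 and 25.9 CPM for SQLE and 66.1, 96.0 and 126 CPM for FDFT1. They were 26.9, 31.4 and 68.5 CPM for CYP51A1, 12.2, 13.6 and 21.0 CPM for MSMO1 and 14.3, 16.4 and 29.98 CPM for INSIG1. Of 35 Lard values in the mitral valve, 13 lay under the lowest Ctrl value. The aorta had 6 of 35, the aortic valve 0 of 35, the pulmonary valve 4 of 35 and the tricuspid valve 2 of 35. The mitral valve had 6 Ctrl libraries and each other tissue 7, and the share over all genes was not counted.

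Adding irradiation to the cholesterol diet was tested in the same way, on libraries that also served above. One of the 25 values was called by edgeR, FDFT1 in the aortic valve. The 6 CHT aortic valves had 20.5, 47.2 and 64.6 CPM as lowest, median and highest levels and the 7 IR/CHT aortic valves had 8.11, 23.4 and 31.3 CPM. Means were 44.0 ± 16.2 and 19.9 ± 9.11 CPM, a log2 fold change of -1.14 (SE 0.36), interval -1.88 to -0.41, adjusted p = 0.0208 by edgeR. The groups overlapped, with 3 of the 7 irradiated libraries below every CHT library. In that valve 19.7% of all genes were called in this comparison, 9.85% lower and 9.9% higher. Over the 5 tissues the share was 0.596%, 19.7%, 0.189%, 0.0761% and 0%. FDFT1 in the aortic valve stayed called under all 6 other settings tried and on leaving out any 1 of the 13 libraries (adjusted p = 0.00853 to 0.0498 by edgeR). The other 4 genes in that valve did not pass, with -0.43 for SQLE, -0.28 for CYP51A1, 0.05 for MSMO1 and 0.33 for INSIG1. Whether FDFT1 differed from the other genes or from the other tissues in this respect was not tested. Macrophage marker sums in the aortic valve were 918 to 1339 CPM in CHT and 2453 to 3076 CPM in IR/CHT, without overlap, and their part in the FDFT1 difference was not tested.

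Across the other tissues, 20 values went uncalled between IR/CHT and CHT, and 4 of them had an unadjusted p under 0.05. FDFT1 in the aorta gave -0.49 (SE 0.20), adjusted p = 0.154 by edgeR. SQLE in the mitral valve gave -0.47 (SE 0.16), adjusted p = 0.224 by edgeR, and CYP51A1 in the pulmonary valve gave -0.35 (SE 0.16), adjusted p = 0.182. The CYP51A1 difference was -0.37 without L176 and -0.29 without L275, where its unadjusted p was no longer under 0.05. MSMO1 in the tricuspid valve had 3.33, 5.30 and 5.92 CPM in CHT and 2.48, 3.01 and 5.07 CPM in IR/CHT, a difference of -0.55 (SE 0.24), adjusted p = 0.480 by edgeR. In all, 21 of the 25 differences were negative and 4 were positive. FDFT1 in the pulmonary valve was 1 of the 4 positive ones, at 0.14 (SE 0.12) with an interval of -0.10 to 0.38, and it was 0.15 without L176 and 0.14 without L275.

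Other genes of the pathway were examined in the same comparison. Of a list of 21 sterol synthesis genes, 15 were named in the tables and tested. On the cholesterol diet, with the 4 members counted, 10, 11, 12, 8 and 8 were called lower than Ctrl over the 5 tissues, beside 5.18%, 3.48%, 0.64%, 0.111% and 0.0816% of all genes. Of the 11 that are not members, 6, 7, 8, 4 and 5 were called lower. The median log2 fold change of the 15 was -0.73, -1.11, -1.11, -0.85 and -1.02, beside -0.04, -0.02, -0.02, 0.00 and -0.05 over all genes. HMGCS1, which makes HMG-CoA at the entry of the pathway, gave -1.62, -1.11, -1.84, -1.09 and -1.22 and was called in every tissue. Its call was lost in the aortic valve (-1.13) and the tricuspid valve (-1.22) when the fit held the Ctrl and CHT libraries alone, and in the aortic valve also without CHT library L265 or Ctrl library L198 or L277 (-1.07 to -0.89). NSDHL, which works next to MSMO1 on the methyl groups, gave -0.11, -0.49, -1.11, -1.03 and -1.04 and was called in the mitral, pulmonary and tricuspid valves. LBR, a sterol reductase that is also a nuclear envelope protein, gave 0.65, SE 0.21 in the aortic valve, the 1 call higher in the list. With plate as a covariate, on plate 1 alone, with no filter on low counts and with the 2 groups alone, 0 of the list were called higher there, with LBR at 0.64 to 0.76, and leaving out any 1 of 7 libraries also ended the call. In the tricuspid valve, 2 rather than 8 of the list were called with the 2 groups alone, where NSDHL (-1.04) was not among them. On plate 2 alone, with 2 CHT and 2 Ctrl libraries a valve, neither HMGCS1 nor NSDHL was called, at -1.07 and -1.06 in the pulmonary valve and -0.31 and -0.48 in the tricuspid valve. The lists were drawn up with earlier results of these data known, so these counts are a description.

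**Figure D3:**
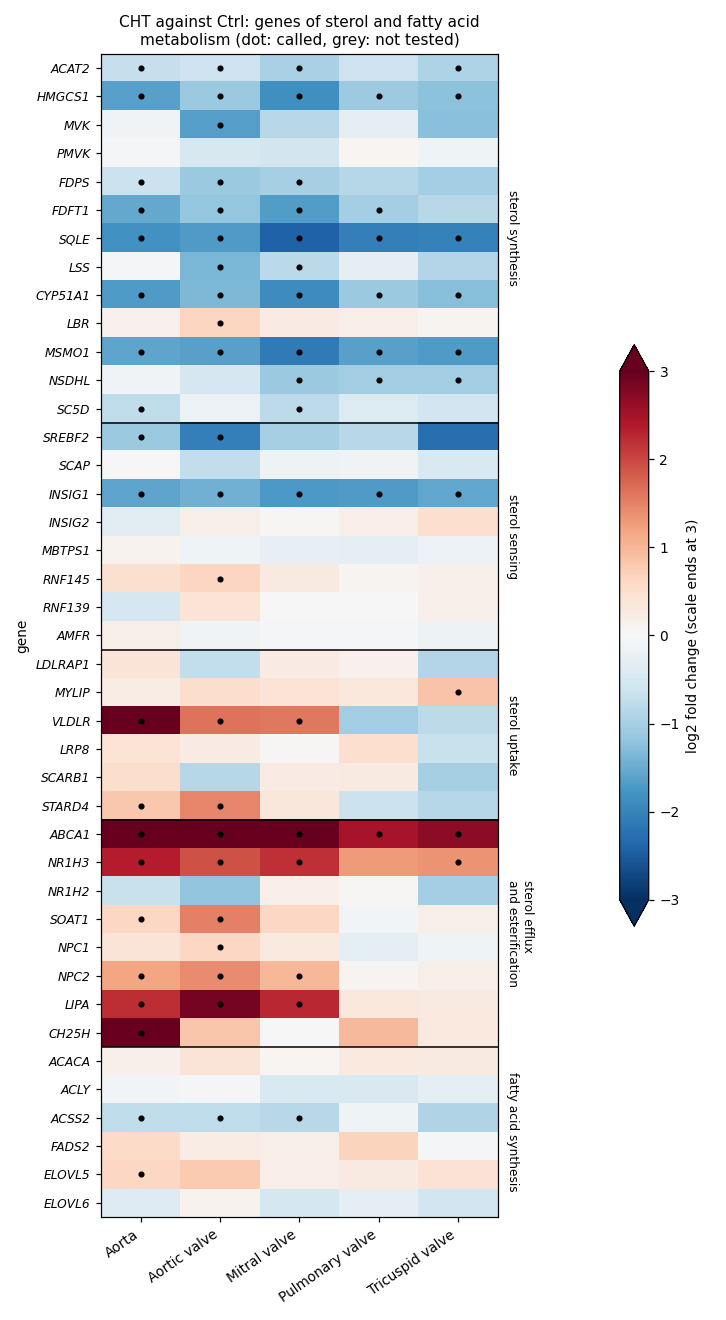
Log2 fold change of CHT against Ctrl (colour, scale ending at 3 in either direction) for tested genes of the pathway lists in 5 tissues, with a dot where edgeR called the change. The 4 enzymes, INSIG1 and HMGCS1 are blue in all 5 tissues, and ABCA1 is red in all 5.

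Among the genes of sterol sensing, INSIG2, a close relative of INSIG1, was called in no tissue, with log2 fold changes of -0.33, 0.17, 0.04, 0.19 and 0.49. SREBF2, the gene of SREBP2, was called lower in the aorta (-1.11, SE 0.37) and in the aortic valve (-2.05, SE 0.56), where Ctrl libraries averaged 205 ± 149.6 CPM and the groups overlapped. The aorta call was lost with no filter on low counts (-1.10) and without Ctrl library L552 or CHT library L560, L572 or L573 (-1.07 to -0.91). SREBF2 was not called in the other 3 valves (-0.997, -0.83 and -2.25). Of the uptake genes, VLDLR, a receptor for triglyceride-rich lipoproteins, was called higher in the mitral valve (1.58, SE 0.34), the aortic valve (1.62, SE 0.49) and the aorta (3.02, SE 0.25) and was not called in the pulmonary and tricuspid valves (-1.05 and -0.77). Its aortic valve call was lost with plate as a covariate (1.91), with the 2 groups alone (1.61) and without Ctrl library L150, L166, L198 or L261 or CHT library L169 or L265 (1.44 to 1.52).

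Genes of cholesterol export and storage were called higher in part, with 6, 6, 4, 1 and 2 of 8 over the 5 tissues beside 14.2%, 8.42%, 4.98%, 0.0484% and 0.0816% of all genes. ABCA1, the pump that loads cholesterol onto apolipoprotein A-I, was called in all 5 tissues at 3.83, 3.91, 3.77, 2.47 and 2.69, rising in the aorta from 56.9 ± 7.10 to 807 ± 231.4 CPM. LIPA, the lysosomal acid lipase, was called in the mitral valve (2.26, SE 0.28), the aortic valve (2.87, SE 0.30) and the aorta (2.23, SE 0.21). Of 6 fatty acid synthesis genes tested, ACSS2, which makes acetyl-CoA from acetate, was called lower in the mitral valve, aortic valve and aorta (-0.83, -0.76 and -0.77), and ELOVL5 was called higher in the aorta (0.62). With plate as a covariate ACSS2 lost its calls in the mitral valve (-0.75) and aortic valve (-0.62) and gained one in the tricuspid valve (-0.90). Several libraries each ended the ACSS2 calls in the valves when left out, and without CHT library L572 or Ctrl library L551 ELOVL5 (0.57 and 0.58) fell short of a fold change of 1.5. On the lard diet edgeR called none of the synthesis list in any tissue, DESeq2 also called none, and 5 of the 75 values had an unadjusted p under 0.05. Between IR/CHT and CHT, 2 of the 15 genes of the synthesis list were called lower and 2 higher in the aortic valve, beside 9.85% and 9.9% of all genes. Among them were FDFT1 lower and NSDHL (0.82, SE 0.26) and MVK (1.05, SE 0.35) higher. The other tissues had no call in the list, beside 0.596% (aorta), 0.189% (mitral valve), 0.0761% (pulmonary valve) and 0% (tricuspid valve) of all genes called. The NSDHL call was lost without CHT library L186 or L244 (0.76 and 0.72), and the MVK call on plate 1 alone (1.08) and without CHT library L186, L228 or L244 or IR/CHT library L178 or L194 (0.85 to 1.03).

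To place the 5 genes among all others, the correlation of each of 13564 genes with their mean was taken over all libraries after removing each tissue's mean. Among the 6 named genes most like them were HMGCS1 (r = 0.961), ACAT2 (0.811) and DUSP10 (0.775). HMGCS1 and ACAT2 are genes of the synthesis list, and DUSP10 is a phosphatase of stress kinases. These r are descriptions over libraries that share rabbits and the same treatments, and after centring every tissue-by-treatment group 2 of the 6 stayed among the top 6, HMGCS1 (0.850) being one. ACAT2 had r = 0.429 on that scale and DUSP10 had 0.409. The members themselves tracked each other within groups, with r from 0.286 (FDFT1 and INSIG1) to 0.742 (FDFT1 and MSMO1) over the 10 pairs and a median of 0.627. In the 34 Ctrl libraries alone the 10 pairs ran from 0.708 to 0.925.

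On chow, tests between tissues of the same rabbits (10 pairs of tissues, 5 genes, rabbit as a block) called 6 of 50 differences by edgeR. The share of all genes called was 3.58% between aortic and mitral valve, 9.82% between pulmonary and tricuspid valve, 10.8% between mitral and tricuspid valve and 29.1% to 52.3% in the other 7 pairs. INSIG1 had 3 of the 6 calls, at 33.2 ± 10.6 CPM (tricuspid valve), 28.1 ± 6.89 (mitral valve), 19.5 ± 7.08 (aorta), 18.5 ± 7.55 (aortic valve) and 18.2 ± 5.80 (pulmonary valve, mean ± SD, scaled over all Ctrl libraries). The tricuspid valve exceeded the aorta by 0.73 on the log2 scale (SE 0.21, adjusted p = 0.00572 by edgeR), the aortic valve by 0.84 (SE 0.21, adjusted p = 0.00186) and the pulmonary valve by 0.87 (SE 0.21, adjusted p = 0.00456). The tricuspid and mitral valves were not called different, nor was the mitral valve from the other 3 tissues. SQLE stood higher in the mitral valve (36.6 ± 6.85 CPM) than in the pulmonary valve (23.7 ± 10.7 CPM, log2 difference 0.59, SE 0.20, adjusted p = 0.0248) and the tricuspid valve (21.2 ± 8.13 CPM, 0.72, SE 0.21, adjusted p = 0.0209). The aorta and aortic valve lay between, at 25.7 ± 7.98 and 26.2 ± 12.9 CPM, and were not called different from the mitral valve. FDFT1 was lower in the aortic valve (94.5 ± 53.3 CPM) than in the pulmonary valve (129 ± 20.2 CPM, -0.59, SE 0.20, adjusted p = 0.0111), with 126 ± 19.8 (mitral valve), 126 ± 27.0 (aorta) and 98.7 ± 34.1 CPM (tricuspid valve). Its difference between aorta and aortic valve (0.56, SE 0.20, adjusted p = 0.0161 by edgeR) fell short of a fold change of 1.5. CYP51A1 ran from 40.0 (tricuspid valve) to 57.2 CPM (mitral valve) and MSMO1 from 15.7 (tricuspid valve) to 22.2 CPM (mitral valve), and no pair of tissues was called for either. Without the rabbit block 3 of the 6 remained, all INSIG1. DESeq2 size factors brought FDFT1 between aortic and pulmonary valve (-0.57) and SQLE between mitral and pulmonary valve (0.57) under the fold change of 1.5, DESeq2 did the same to both (-0.56 and 0.57), and the fit with no filter did so to SQLE (0.58). With plate in the model INSIG1 no longer differed between tricuspid valve and aorta (-0.57, adjusted p = 0.113 by edgeR). With plate the FDFT1 call moved from the pulmonary valve to the aorta, which exceeded the aortic valve by 0.76 and the tricuspid valve by 0.74. Without rabbit L08273 the count of 6 went to 3. The FDFT1 call between aortic and pulmonary valve was also lost without L08256, L08719 or L08742. The SQLE call between mitral and pulmonary valve was also lost without L08256, L08709 or L08719, and that between mitral and tricuspid valve without L08313 or L08709.

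Some chow-fed rabbits were low or high in every tissue measured. As a mean log2 difference of the 5 genes from the Ctrl mean of the tissue, rabbit L08256 was below 0 in all 4 of its tissues (median -0.73), while L08313 and L08286 were above 0 in all 5 (medians 0.47 and 0.43). The other 4 rabbits had values on both sides. For 4 of the 5 genes the aortic valve had the highest coefficient of variation of the 5 tissues on chow, the exception being CYP51A1 (38.3%, and 38.7% in the aorta). The coefficients across the 5 genes were 38.3% to 65.1% in the aortic valve, 21.3% to 38.7% in the aorta, 12.5% to 24.96% in the mitral valve and 13.4% to 29.0% in the aortic valves of the Lard group. Over all treatments, with each group's mean removed, the same rabbit's aortic and mitral valves had r = 0.739 (26 rabbits) and its mitral and pulmonary valves r = 0.110 (26 rabbits), the highest and lowest of the 10 pairs of tissues. Tissues of the same rabbit lay only in part on the same plate, and these r are given without a test.

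**Figure D4:**
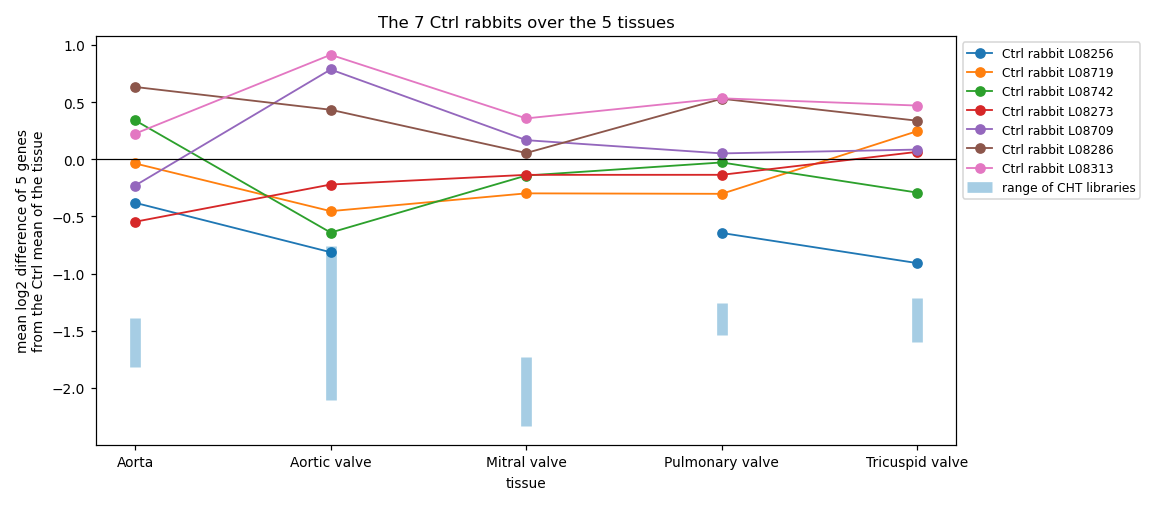
Mean log2 difference of the 5 genes from the Ctrl mean of the tissue for each of the 7 Ctrl rabbits (lines), with the range of the CHT libraries as bars. Ctrl rabbits lie above the CHT range in every tissue but the aortic valve, where the lowest Ctrl rabbit (-0.81) falls under the highest CHT library (-0.76).

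Markers of other cell types moved with the diet. Macrophage markers, 13 of 14 of them named in the tables, summed to 64.2 to 279.8 CPM in Ctrl and 427 to 1141 CPM in CHT aortas, with 11 of 13 called higher. They summed to 219 to 676 and 918 to 1339 CPM in the aortic valve (6 of 13 called higher) and to 253 to 773 and 752 to 1305 CPM in the mitral valve (9 of 13). In the pulmonary valve the sums were 631 to 807 and 601 to 915 CPM, and in the tricuspid valve 575.1 to 834 and 587 to 919 CPM. There edgeR called 0 of 13 and 0 of 12, with 3 and 2 at an unadjusted p under 0.05. The 5 genes were lower in those 2 valves as well, by medians of -1.62 and -1.55, and the macrophage sums of Ctrl and CHT overlapped there. The part of the macrophage markers in the members' values was not tested in any tissue. Division markers were called higher for 6 of 6 genes in the aorta, 6 of 6 in the aortic valve and 5 of 6 in the mitral valve. Of all genes, 14.2% were called higher in the aorta, 8.42% in the aortic valve and 4.98% in the mitral valve. Smooth muscle markers were called lower in the aorta for 3 of 6 genes (72651 to 100761 CPM in Ctrl and 28162 to 70669 CPM in CHT), and heart muscle markers were called lower in the aortic valve for 7 of 8 (179.4 to 12887 and 9.90 to 359 CPM). Pulmonary valve heart muscle markers had no call by edgeR, with 7 of 7 at an unadjusted p under 0.05 and a median log2 fold change of -5.30 (33.7 to 5930.2 CPM in Ctrl and 13.2 to 50.01 CPM in CHT). Adipocyte markers in the tricuspid valve also had no call, with 3 of 4 at an unadjusted p under 0.05 and sums of 13.5 to 165.9 and 2.52 to 25.1 CPM. Endothelial markers were called higher in the aorta for 6 of 7 genes. The part of these markers in the members' values was not tested.

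**Figure D5:**
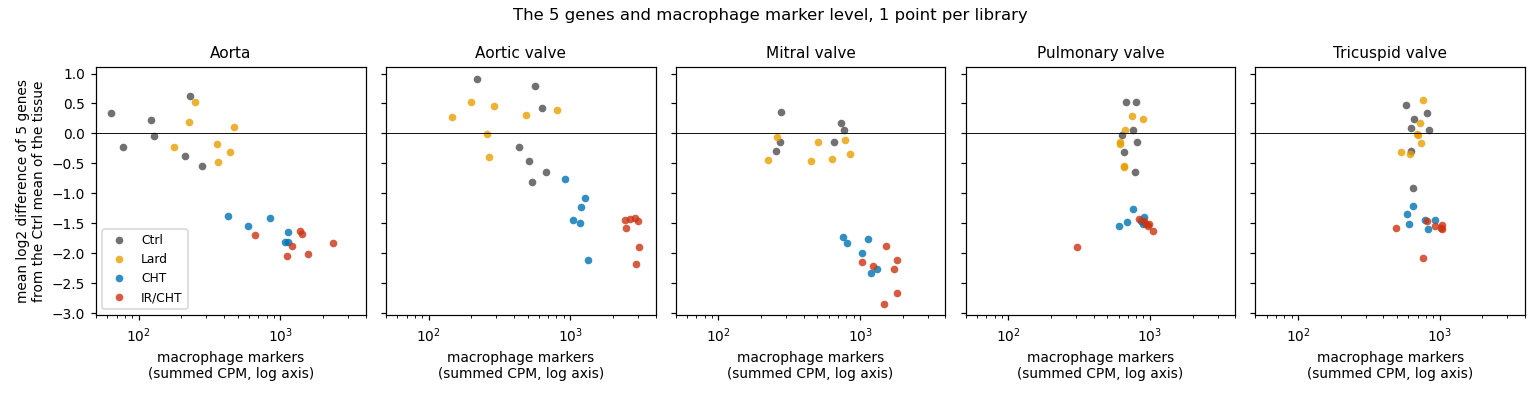
Mean log2 difference of the 5 genes from the Ctrl mean (vertical axis) against the summed CPM of 13 macrophage markers (horizontal log axis), 1 point per library and 1 panel per tissue. In the mitral valve, aortic valve and aorta the CHT libraries lie to the right of and below most Ctrl libraries, while in the pulmonary and tricuspid valves they lie below at overlapping marker sums.

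The treatments were spread unevenly over the 2 plates. The counts by plate below are for the cholesterol diet, for which the genes were chosen, and are given as a description. All aortas were on plate 2, and the CHT aortic and mitral valves were on plate 1 alone. Within plate 1, CHT against Ctrl called 20 of 20 values in the 4 valves, with log2 fold changes of -2.52 to -0.90, beside 0.0687% to 0.799% of all genes called lower. Within plate 2, which held 2 CHT and 2 Ctrl libraries each of pulmonary and tricuspid valve, edgeR called 0 of 10 and also no other gene lower in either valve. All 10 values were negative, from -1.97 to -0.60. With plate as a covariate in the 4 valves, 18 of their 20 values were called, beside 0.0884% to 1.01% of all genes called lower. For CHT against Lard, plate 1 alone called 14 of 20, beside 0.0136% to 0.277% of all genes called lower. Plate 2 alone called 0 of 10 and no gene lower in either valve, and all of these values were negative. Of the calls lost on plate 1, SQLE (-1.74), CYP51A1 (-0.99), MSMO1 (-1.30) and INSIG1 (-1.44) were in the pulmonary valve.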

How the data were processed

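RNA was extracted from snap-frozen proximal aorta and aortic, mitral, pulmonary and tricuspid valves, and stranded total RNA libraries were sequenced. The submitters' processing notes name bcl2fastq 2.20 and OryCun2.0, and per the study's methods the authors ran the nf-core rnaseq workflow with its defaults except for clipping and trimming of reads. The deposited tables hold raw counts per gene (29587 genes), from which everything here was computed. No strand setting is named among the changed parameters, and reads of overlapping antisense genes may be included.

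Each tissue was fitted on its own with edgeR 4.0.16 in R 4.3.3 (filterByExpr, TMM scaling, robust quasi-likelihood F-test, the 4 treatments in 1 fit). A gene was called at a Benjamini-Hochberg adjusted p under 0.05 over all genes tested and a fold change over 1.5. DESeq2 1.42.0, its size factors, no filter, plate, the 2 groups alone, and leaving out each library were alternatives. Levels are CPM with TMM scaling. Of these fits, only the edgeR treatment fit was run on simulated counts, modelled on the mitral valve libraries.

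Each rabbit gave up to 5 tissues, and the column names carry the rabbit number, so Ctrl tissues were compared with the rabbit as a block. Deviations of the same rabbit had a positive r in all 10 pairs of tissues (0.110 to 0.739), which was not tested. Treatments were given to different rabbits and have no pairing. Genes named are the members, the pathway lists, the 6 genes most like the members, and markers that check a tissue or move with a result. Members and lists were chosen with earlier results of these data known. No sequence or coordinate was used here, and some genes of the lists, though counted, are not reported here by name.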

Additional observations from a re-analysis of the deposited data

Results flagged for a closer look

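Of 100 groups of a gene, tissue and treatment, 2 held a library far from the others of its group by Dixon's test, which chance alone passes in about 1 in 20 groups. CYP51A1 in the CHT pulmonary valves reached 27.5 CPM in library L246, and the next highest of the 6 libraries held 20.5 CPM. FDFT1 in the IR/CHT tricuspid valves was at 30.1 CPM in library L197, and the next lowest of the 7 libraries held 48.1 CPM.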

How the results depend on the processing

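No call of a member changed direction under any alternative. On plate 2 alone, CHT against Ctrl had 0 of 10 values called and CHT against Lard 0 of 10, with 2 CHT libraries in each valve and 0% of all genes called lower, and IR/CHT against Ctrl had 8 of 20, beside 0% to 8.89%. On plate 1 alone they had 20 of 20, 14 of 20 and 20 of 20, beside 0.0687% to 0.799%, 0.0136% to 0.277% and 0.149% to 17.2% of all genes called lower. Leaving out 1 library at a time gave 23 to 25 calls for CHT against Ctrl (0.0672% to 7.63% of all genes called lower), 25 to 25 for IR/CHT against Ctrl (0.0955% to 23.2%) and 23 to 24 for CHT against Lard (0.0201% to 2.27%). It gave 0 to 0 for Lard against Ctrl, beside 0% to 3.82% of all genes called in either direction. For IR/CHT against CHT it gave 1 to 1, beside 0% to 21.2%. With other tools, scalings, filters and designs on all libraries, CHT against Ctrl had 21 to 25 calls beside 0.0145% to 5.07% of all genes called lower. Lard against Ctrl remained at 0, beside 0% to 2.71% of all genes called in either direction. For the pairs of Ctrl tissues, the fit without the rabbit as a replicate block gave 3 calls in place of 6, and leaving out 1 rabbit gave 3 to 8, the lowest without rabbit L08273. The causes were not tested. DESeq2 size factors moved the median of all genes by at most 0.0599 (log2). The lowest count of a member in a library was 39, and the part of depth in the width of the intervals was not tested.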
